A study of Mus musculus with 2 samples.

Results

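The mitochondrial ribosomal protein genes, named Mrpl for the large and Mrps for the small subunit, were examined on 2 Affymetrix arrays of mouse fetal liver macrophages. Members were chosen by symbol alone: every gene whose probe set carries a single symbol made of Mrpl or Mrps and a number, with the probe set of highest mean signal over both arrays standing for each gene. This gave 76 genes, 47 Mrpl and 29 Mrps, of 18193 genes with a single-symbol probe set, and 156 probe sets. One array held RNA of c-Maf KO cells and the other RNA of wild-type cells, both from C57BL/6J embryos at E15.5, a stage of embryonic development counted in days. The labels give the genotypes as c-Maf-/- and c-Maf+/+, and the cells were sorted for Mac-1 and F4/80. The sources used here do not give the number of embryos behind each array. The stated aim was to find genes that are lower without c-Maf, a basic leucine zipper transcription factor.

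The mitochondrial ribosome translates the few messenger RNAs encoded by mitochondrial DNA, all of them for subunits of the respiratory chain and ATP synthase. Its RNAs come from mitochondrial DNA, whereas every one of its proteins is encoded in the nucleus, made in the cytosol and imported. Some of these proteins have a counterpart in the bacterial ribosome and others were added in mitochondria. In the fetal liver, maturing erythroblasts surround a central macrophage, and their mitochondria carry out part of heme synthesis.

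No difference below has a replicate check, since there was 1 array per genotype, and no test was possible. The number of arrays limits the precision. The KO array was dimmer, with a median over all probe sets of 2.98 intensity units in KO and 4.73 in wild type. The 18 hybridisation control probe sets did not share this, with a median log2 ratio of 0.24 (KO over wild type; SD 0.087 across probe sets). Deposited signals are therefore given beside level-adjusted log2 ratios, which are ratios of KO over wild type after quantile normalization, with values below 3.75, the median of all adjusted values, raised to that floor. A gene counts as measured if either array reaches the floor. The ratio of 3' to 5' signal of Actb was 6.05 in KO and 13.3 in wild type, and that of Gapdh 0.90 in KO and 1.83 in wild type, so the arrays differed in this measure of RNA integrity and labelling; its part in any ratio below was not tested.

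Maf, the deleted gene, had a signal of 0.219 in KO and 47.6 in wild type, at least 8.51-fold lower in KO after level adjustment. All 7 macrophage markers examined (Adgre1, Itgam, Csf1r, Cd68, Ptprc, Fcgr1 and Mertk) were above the floor on both arrays, with Itgam nearest to it at 3.94 in KO and 5.76 in wild type. Markers of other cells were also above the floor. The summed deposited signal of 6 erythroid markers (Hbb-y, Hbb-bh1, Hba-x, Klf1, Slc4a1 and Alas2) was 5300 in KO and 8363 in wild type, most of it from Hbb-y. That of 5 granulocyte markers was 7679 in KO and 11643 in wild type, most of it from S100a8 and S100a9. That of 5 hepatoblast markers was 528 in KO and 330 in wild type, and that of the macrophage markers 385 in KO and 956 in wild type; the sums are not comparable between lists. The median level-adjusted log2 ratio of the hepatoblast markers was 2.27, with all 5 above 0. The other lists held markers on both sides of 0, among them Cd68 (1.43) and Ptprc (-1.05) for macrophages, Klf1 (1.53) and Hbb-y (-0.58) for erythroid cells, and Elane (0.14) and Mpo (-1.19) for granulocytes. No marker of any list was below the floor on either array. All of these cells hold mitochondria, and their part in the ratios of the mitochondrial ribosomal protein genes was not tested. Fewer cells of a type and less RNA per cell cannot be told apart on these arrays.

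Some features were more frequent in the promoters of these genes than in those of other genes. RefSeq promoter windows, from 250 bases before to 50 bases after the annotated start (GRCm38.p6), were found for 67 of the 76 genes. In 26 of the 67, or 38.8%, another gene in the same table starts on the opposite strand within 1000 bases, pointing away. The share was 18.7% of 10701 genes measured on the arrays and 12.9% of 27025 genes in the table. A further feature was a match to motifs of factors known to drive nuclear genes for mitochondria. GCGCATGCG, a match to the NRF1 motif, was present on either strand in 10.4% of the members, against 3.72% of genes measured and 1.95% of all genes in the table. CCGGAAGT, an ETS motif that includes sites of GABPA, was present in 17.9% of the members, against 7.98% of genes measured and 4.31% of all. AAGATGGCG, a YY1 motif, was present in 11.9% of the members, against 3.18% of genes measured and 1.64% of all. By symbol, the NRF1 match was present in 14.6% of 41 Mrpl genes but 3.85% of 26 Mrps genes, near the share of genes measured. The ETS match was present in 19.5% of Mrpl and 15.4% of Mrps genes, and the YY1 match in 9.76% and 15.4%. At least 1 of these 3 was found in 26 members, or 38.8%, against 14.0% of genes measured. TGCTGA, part of the recognition element of Maf proteins, was found in 14.9% of the members, which is no more than the 19.2% of genes measured. A match says only that these letters lie in the window; binding was not measured. The motifs can overlap each other, and the members' promoters had a median GC content of 58.7%, against 59.7% for genes measured and 52.7% for all promoters. Their median ratio of observed to expected CpG was 0.82, against 0.71 for genes measured and 0.38 for all promoters, and the part of this in the share of motifs that hold CpG was not tested.

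The following promoters are shown because they lie between a mitochondrial ribosomal protein gene and its divergent neighbour; each runs from 30 bases inside the neighbour to 30 bases inside the named gene, with motif matches in capitals where the stretch holds any. The sequences are from RefSeq (GRCm38.p6), written 5′ to 3′ on the strand of the named gene.
Mrps11 and Mrpl46, chr7:78783059-78783160, plus strand: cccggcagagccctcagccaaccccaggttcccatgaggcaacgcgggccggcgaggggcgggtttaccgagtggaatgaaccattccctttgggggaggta
Mrpl43 and Twnk, chr19:45006413-45006588, minus strand: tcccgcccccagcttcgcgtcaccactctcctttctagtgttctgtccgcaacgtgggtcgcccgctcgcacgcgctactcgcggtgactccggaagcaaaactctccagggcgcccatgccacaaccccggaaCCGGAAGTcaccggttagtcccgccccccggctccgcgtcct
Mrps12 and Sars2, chr7:28741792-28741998, minus strand: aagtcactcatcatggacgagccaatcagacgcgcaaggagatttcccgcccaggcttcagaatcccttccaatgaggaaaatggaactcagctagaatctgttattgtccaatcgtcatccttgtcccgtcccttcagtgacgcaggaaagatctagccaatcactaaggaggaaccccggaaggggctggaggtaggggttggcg
Mrpl27 and Eme1, chr11:94653713-94653820, plus strand: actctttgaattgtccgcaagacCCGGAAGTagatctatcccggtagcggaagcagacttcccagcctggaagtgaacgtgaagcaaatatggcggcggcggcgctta
Mrpl32 and Psma2, chr13:14613008-14613272, minus strand: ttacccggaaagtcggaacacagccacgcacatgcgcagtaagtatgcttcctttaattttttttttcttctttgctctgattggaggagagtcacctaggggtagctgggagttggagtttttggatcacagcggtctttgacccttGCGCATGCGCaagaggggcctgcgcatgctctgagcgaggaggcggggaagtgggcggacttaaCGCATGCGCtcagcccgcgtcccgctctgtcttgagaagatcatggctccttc

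The next promoters run from 150 bases before to 30 bases after the start, with matches again in capitals. They are shown for matches to NRF1 (Mrpl10 and Mrpl9), YY1 (Mrps18a), ETS (Mrpl52) and TGCTGA, part of the Maf element (Mrpl1, opposite strand). Those of Mrpl41 and Mrpl11, the members with the lowest ratios, are also shown and hold none of these motifs.
Mrpl10, chr11:97041432-97041611, plus strand: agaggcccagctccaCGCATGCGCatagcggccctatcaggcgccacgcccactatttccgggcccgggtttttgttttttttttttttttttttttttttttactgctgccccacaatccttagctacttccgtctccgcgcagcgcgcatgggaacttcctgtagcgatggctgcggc
Mrpl9, chr3:94443186-94443365, plus strand: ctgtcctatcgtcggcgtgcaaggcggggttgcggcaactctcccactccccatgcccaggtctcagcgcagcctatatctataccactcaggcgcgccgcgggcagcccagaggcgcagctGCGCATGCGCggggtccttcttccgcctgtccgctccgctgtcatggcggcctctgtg
Mrps18a, chr17:46110854-46111033, plus strand: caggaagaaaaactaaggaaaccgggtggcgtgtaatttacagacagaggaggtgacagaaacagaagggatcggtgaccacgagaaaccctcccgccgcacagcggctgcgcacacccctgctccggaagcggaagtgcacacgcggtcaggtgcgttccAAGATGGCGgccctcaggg
Mrpl52, chr14:54426759-54426938, plus strand: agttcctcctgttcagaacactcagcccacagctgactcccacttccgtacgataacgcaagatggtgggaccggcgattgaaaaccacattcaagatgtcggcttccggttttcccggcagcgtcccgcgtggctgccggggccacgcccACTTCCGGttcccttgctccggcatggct
Mrpl1, chr5:96209965-96210144, plus strand: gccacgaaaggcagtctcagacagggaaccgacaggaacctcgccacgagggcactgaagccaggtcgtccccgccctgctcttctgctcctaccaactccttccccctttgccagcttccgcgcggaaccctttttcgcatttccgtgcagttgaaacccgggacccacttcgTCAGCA
Mrpl41, chr2:24975069-24975248, minus strand: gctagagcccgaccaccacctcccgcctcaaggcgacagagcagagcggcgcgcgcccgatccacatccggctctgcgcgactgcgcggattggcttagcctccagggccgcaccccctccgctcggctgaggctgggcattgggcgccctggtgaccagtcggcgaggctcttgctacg
Mrpl11, chr19:4962156-4962335, plus strand: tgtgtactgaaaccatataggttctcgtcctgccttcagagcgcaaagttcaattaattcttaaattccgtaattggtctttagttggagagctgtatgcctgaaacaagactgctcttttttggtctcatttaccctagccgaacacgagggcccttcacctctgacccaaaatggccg

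After level adjustment, 32 of the mitochondrial ribosomal protein genes had a ratio below 0 and 44 above 0. Among all genes measured, 6582 were below 0 and 6703 above. Quantile normalization gives both arrays the same distribution, so this split does not show whether the members moved together. All 76 were measured. Of these, 75 were at or above the floor on both arrays, and Mrpl55 was so in wild type only. Deposited signals ran from 0.332 to 155 in KO and from 4.78 to 333 in wild type, with 70 genes lower and 6 higher in KO. After level adjustment the median log2 ratio was 0.19 (SD 0.61 across the 76 genes), against 0.01 (SD 0.75) for all 13290 genes measured. The position of the group relative to all genes depended on the scaling: as deposited, the members' median was -0.89 and that of all genes -0.79, and after lowess correction for signal it was 0.21 for members and -0.18 for all genes. The lowess curve was fitted to genes above the floor on both arrays. Its medians also count genes with only a bound, 4241 of 13479 genes but 1 of 76 members, so the 2 medians rest on unlike sets. The part of this in their difference was not tested.

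At a threshold of 2-fold, 2 of the 76 genes were lower in KO, or 2.63%, against a background of 9.05% of all genes measured. Another 7 were higher, or 9.21%, against a background of 8.34%, and 67 lay within 2-fold. As deposited, 33 of 76 were at least 2-fold lower, or 43.4%, where the background was 39.8%; 0 were at least 2-fold higher, where it was 1.19%. After lowess correction 2 of 76 were lower, where the background was 9.43%, and 10 were higher, or 13.2%, where it was 6.12%. That background includes the 4241 genes with only a bound. No member above the floor on both arrays reached 3-fold after level adjustment; Mrpl55 has only a bound. Of the 65 members whose brighter array was at least 4 times the floor, 2 were lower and 5 higher, where the background among genes of that brightness was 12.0% lower and 8.63% higher. When genes were divided into 5 equal bins by signal, the 32 members in the fourth bin had a median of 0.25, against -0.0033 for all genes of the bin, and the 32 members in the brightest bin had 0.013, against -0.098.

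**Figure D1:**
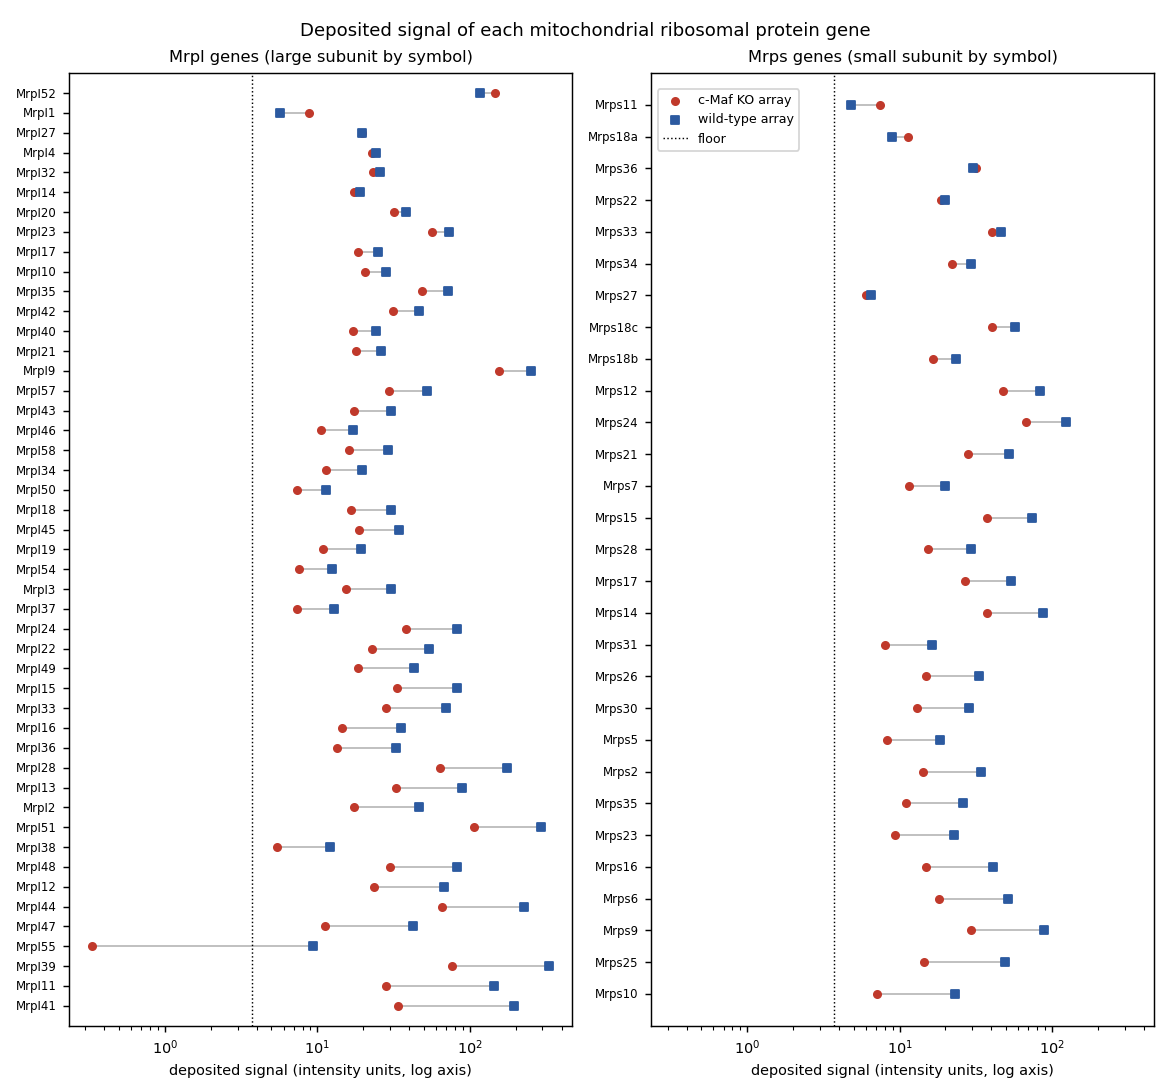
Deposited signal (intensity units, log axis) of each gene on the c-Maf KO array (circles) and the wild-type array (squares), Mrpl genes on the left and Mrps genes on the right, ordered by level-adjusted ratio, with the deposited floor as a dotted line. In 70 of 76 genes the KO signal lies left of the wild-type signal; levels are not comparable between genes, since each is read by its own probes.

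**Figure D2:**
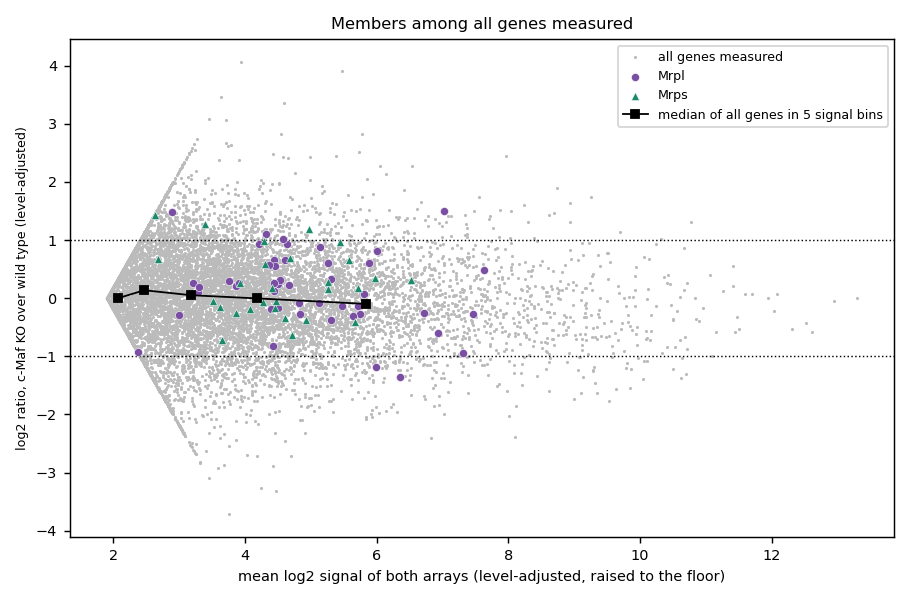
Level-adjusted log2 ratio of KO over wild type against the mean log2 signal of both arrays for all 13290 genes measured (grey), Mrpl genes (circles) and Mrps genes (triangles); dotted lines mark 2-fold, and squares are medians of all genes in 5 signal bins. Members spread on both sides of the line of medians, with 2 below and 7 above the 2-fold lines.

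Large and small subunit genes had nearly the same median. It was 0.21 for the 47 Mrpl genes (SD 0.64, from -1.36 for Mrpl41 to 1.502 for Mrpl52) and 0.17 for the 29 Mrps genes (SD 0.57, from -0.72 for Mrps10 to 1.43 for Mrps11). The difference, large minus small, was 0.05 log2 units. It was 0.15 in deposited ratios and -0.04 after lowess correction for signal, so its sign was not the same under all scalings. Both genes at least 2-fold lower, Mrpl41 and Mrpl11, were Mrpl genes, or 4.26% of 47, against 9.05% of all genes measured. Each rested on 1 of several probe sets, and with means over probe sets the only lower member was Mrps9. Of the 7 higher, 4 were Mrpl genes, or 8.51% of 47, and 3 were Mrps genes, or 10.3% of 29, against 8.34% of all genes measured.

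Symbols do not always give the subunit. Mrps30 and Mrps18a are named for the small subunit, but their proteins sit in the large subunit of the mammalian mitochondrial ribosome, and the protein of Mrps36 belongs to the 2-oxoglutarate dehydrogenase complex. With subunits assigned in this way the medians were 0.21 for 49 large and 0.16 for 26 small subunit genes. The 3 small subunit symbols past 2-fold then came down to 1, Mrps11, as the others were Mrps18a and Mrps36. Mrps30 had signals of 12.99 in KO and 28.7 in wild type, a level-adjusted log2 ratio of -0.06.

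Origin did not separate the genes either. Genes were classed as with or without a bacterial counterpart by the structure names of their proteins. The median was 0.17 for the 45 genes with a counterpart and 0.21 for the 30 without one. With a counterpart 1 was at least 2-fold lower (2.22%) and 4 higher (8.89%). Without one 1 was lower (3.33%) and 2 higher (6.67%). The background was 9.05% lower and 8.34% higher. The lower genes were Mrpl11 and Mrpl41, each by 1 of several probe sets. Within the large subunit both classes had a median of 0.21, with 29 and 18 genes. Within the Mrps symbols it was 0.16 for 16 genes with a counterpart and 0.27 for 12 without, which include Mrps18a, Mrps18b and Mrps30. Mrps18a (mL66) and Mrps18b (mS40) are in that class by structure name only. They share a family with Mrps18c, which is classed with a counterpart. Mrps18a is 1 of the 2 higher genes without one, so these counts depend on the naming.

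The lowest large subunit genes were Mrpl41, Mrpl11, Mrpl39, Mrpl55 and Mrpl47. Mrpl41, which encodes a protein with no bacterial counterpart, had a signal of 34.0 in KO and 197 in wild type, a log2 ratio of -1.36 (2.57-fold lower in KO). Mrpl11 encodes the protein at the base of the stalk that recruits translation factors, and had 28.1 in KO and 145 in wild type, a log2 ratio of -1.19 (2.28-fold lower). No other member passed 2-fold lower at this floor, although Mrpl55, below the floor in KO, passed it with a lower one. The ratios of Mrpl41 and Mrpl11 each rested on 1 of several probe sets. Another Mrpl41 probe set gave 28.7 in KO and 35.5 in wild type, a ratio of 0.83, and the other measured Mrpl11 probe sets gave 0.00 and 0.02. The chosen probe sets of both carry a suffix, _a for Mrpl41, which marks probes shared by transcripts of the same gene, and _x for Mrpl11, which marks probes that can match other sequences. Mrpl39, whose protein resembles part of threonyl-tRNA synthetase, was at -0.94 (76.1 in KO and 333 in wild type), with a dimmer probe set at 0.18. Mrpl47, which encodes the counterpart of a bacterial protein at the exit of the peptide tunnel, was at -0.82 (11.2 in KO and 42.2 in wild type). A dimmer measured probe set of Mrpl47 was at -0.02. Mrpl55 had 0.332 in KO and 9.42 in wild type; since the KO value is below the floor, it was at least 1.90-fold lower.

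The highest large subunit genes were Mrpl52, Mrpl1, Mrpl27, Mrpl4 and Mrpl32. Mrpl52 had a signal of 146 in KO and 116 in wild type, a log2 ratio of 1.502 (2.83-fold higher in KO). Its 2 other measured probe sets were also above 0, at 1.06 and 0.42. Mrpl1, which encodes the protein of the mobile stalk near the site where transfer RNA leaves, had 8.80 in KO and 5.66 in wild type, a ratio of 1.48, but another of its probe sets had 3.01 in KO and 9.87 in wild type, a ratio of -0.97. Mrpl27, whose bacterial counterpart reaches the peptidyl transferase centre, had 19.8 in KO and 19.5 in wild type, a ratio of 1.10. Mrpl4 encodes a protein that lines the peptide tunnel and had 22.9 in KO and 24.2 in wild type, a ratio of 1.02; its deposited signal was thus slightly lower in KO. Mrpl32, at 23.0 in KO and 26.0 in wild type, was just within 2-fold at 0.93. Mrpl27 and Mrpl4 each had a single measured probe set.

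By symbol, the 29 Mrps genes had an SD of 0.57 and the 47 Mrpl genes 0.64, a difference that was not tested. Mrps11, whose protein lies on the platform near the exit of the messenger RNA, had signals of 7.43 in KO and 4.78 in wild type, a log2 ratio of 1.43, close to the floor on the wild-type array. Mrps36 had 31.7 in KO and 30.5 in wild type, a ratio of 1.19. Mrps22 (0.99) and Mrps33 (0.97), both without a bacterial counterpart, lay just within 2-fold. The Mrps18 family was above 0 after level adjustment in all 3 members, whereas in deposited signal only Mrps18a was higher in KO. Mrps18a had 11.4 in KO and 8.87 in wild type, a ratio of 1.28; Mrps18c, the counterpart of the bacterial protein, had 40.2 in KO and 56.8 in wild type (0.66), and Mrps18b had 16.5 in KO and 23.3 in wild type (0.58). The lowest Mrps genes were Mrps10 at -0.72 (7.13 in KO and 23.2 in wild type), Mrps25 at -0.64 (14.4 in KO and 48.9 in wild type), Mrps9 at -0.41, Mrps6 at -0.38 and Mrps16 at -0.35. A dimmer measured probe set was at -0.01 for Mrps25 and at -0.20 for Mrps6. Mrps9 encodes a protein of the head of the small subunit. Its chosen probe set had 29.6 in KO and 88.6 in wild type, while its 3 others were lower still, at -1.05, -1.10 and -1.46.

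Genes read by probe sets of high signal lay on both sides of 0 after level adjustment. In the large subunit these were Mrpl39, Mrpl9 (155 in KO and 253 in wild type, 0.48), Mrpl51 (107 in KO and 294 in wild type, -0.28), Mrpl44, which has a fold like ribonuclease III (65.4 in KO and 225 in wild type, -0.59), and Mrpl52. In the small subunit they were Mrps24 (67.5 in KO and 124 in wild type, 0.31), Mrps12, a protein of the decoding centre (47.4 in KO and 83.6 in wild type, 0.35), Mrps14 (37.4 in KO and 87.2 in wild type, -0.05), Mrps9, and Mrps15 (37.3 in KO and 74.2 in wild type, 0.18). Other measured probe sets were at -0.97 and 0.05 for Mrpl44, 0.04 for Mrpl51, 0.23 and 0.95 for Mrpl9, 0.70 for Mrps24 and 0.56 for Mrps14.

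How far probe sets of the same gene differed set a yardstick for these ratios. The pooled SD of level-adjusted log2 ratios between bright probe sets of the same gene, those at least 4 times the floor, was 0.64 in 14 members and 0.72 in 1625 genes of the whole array. The SD of 0.61 between the 76 members was of the same size. This is no replicate error, because every probe set was read in the same pair of hybridisations. Among 35 members with at least 2 probe sets measured, 20 had probe sets on both sides of 0. In 8 the gap exceeded 1.3 log2 units: Mrpl1, Mrpl41, Mrpl21, Mrpl35, Mrps15, Mrpl48, Mrps23 and Mrpl15. For Mrpl48 the chosen probe set, which carries the suffix _x, was at -0.30. Another without a suffix was at 1.55, with signals of 33.4 in KO and 24.6 in wild type. All 4 members with a chosen _x probe set were below 0 (median -0.28), against 15 of the 40 whose chosen probe set has no suffix. For Mrpl35 the probe sets ran from -1.17 to 0.74 and for Mrps15 from -1.38 to 0.50, where both outermost values of Mrpl35 and the lowest of Mrps15 are bounds set by the floor. For Mrpl21 the lowest was -0.44 and the gap 1.94, with the highest again a bound. In Mrps23 they ran from -0.26 to 1.23 and in Mrpl15, with 7 measured, from -0.61 to 0.81. With the mean over a gene's measured probe sets, Mrps9 (-1.01) was the only member at least 2-fold lower, and 5 were higher: Mrps11 (1.43), Mrps18a (1.28), Mrps36 (1.19), Mrpl27 (1.10) and Mrpl4 (1.02). Mrpl52 was then at 0.99, Mrpl1 at 0.26, Mrpl41 at -0.27 and Mrpl11 at -0.39.

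**Figure D3:**
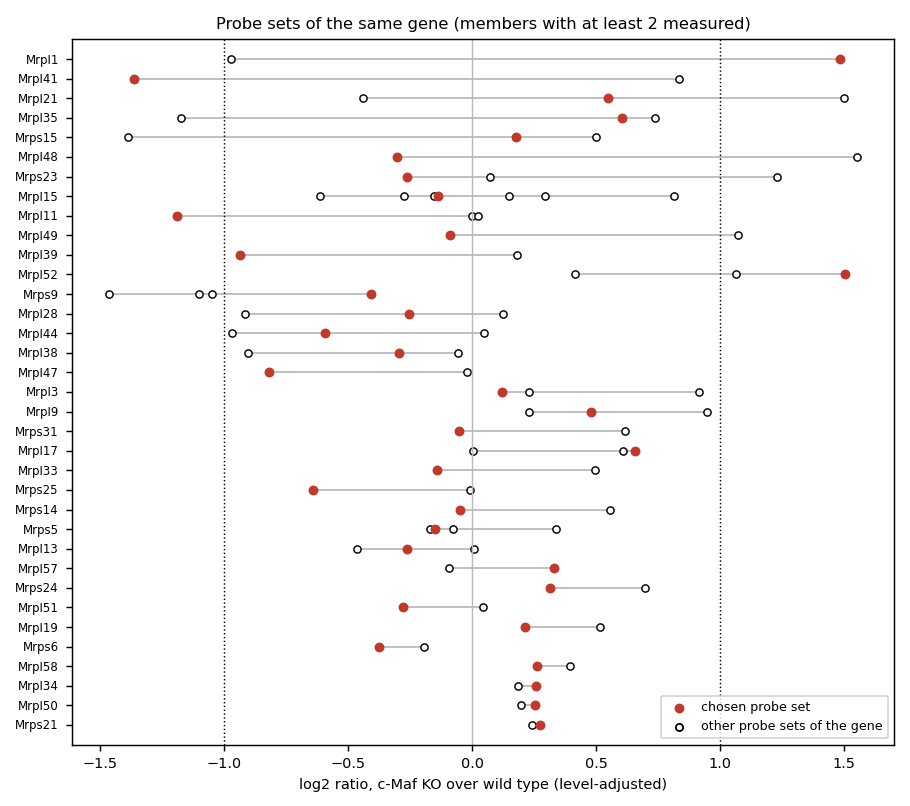
Level-adjusted log2 ratio of every measured probe set of the 35 members with at least 2, ordered by the gap between the lowest and highest; filled circles are the chosen probe sets, open circles the others and dotted lines 2-fold. Mrpl1 and Mrpl41, at the top, have a chosen probe set past 2-fold and another on the opposite side of 0.

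Divergent neighbours did not share the ratio of the mitochondrial ribosomal protein gene beyond what other divergent pairs did. In 23 pairs both genes were measured, and the median absolute difference of their log2 ratios was 0.73, against 0.67 in all 614 such pairs measured on the arrays. In 7 of the 23 pairs, or 30.4%, the difference exceeded 1 log2 unit, against 29.8% of the 614. Mrps11 and Mrpl46 are themselves a pair of 1 small and 1 large subunit gene whose starts lie 42 bases apart. Mrpl46 had signals of 10.5 in KO and 17.2 in wild type, a ratio of 0.30, so the pair differed by 1.14 log2 units, with Mrps11 close to the floor. Twnk, which encodes the mitochondrial DNA helicase and starts 116 bases from Mrpl43, was at -0.41 (16.2 in KO and 47.2 in wild type), and Mrpl43 at 0.31 (17.4 in KO and 30.2 in wild type). Sars2, for the mitochondrial seryl-tRNA synthetase, starts 147 bases from Mrps12 and was at -0.38, where its KO signal of 3.46 was below the deposited floor of 3.70. Ndufb5, for a subunit of respiratory complex I, was at -0.24 beside Mrpl47 at -0.82, and Fau, whose product includes a protein of the cytosolic ribosome, at 0.27 beside Mrpl49 at -0.09. Wide pairs were Mrpl40 (0.58) with Hira (-1.39), Mrpl27 (1.10) with Eme1 (-0.76), and Mrpl14 (0.93) with Tmem63b, which was below the floor in KO and has a bound of -1.40. In the 18 pairs with no bound the median absolute difference was 0.73, against 0.65 in 421 such pairs. These neighbours, Mrpl46, Mrpl43, Mrpl49, Mrpl14 and Mrpl40 were chosen after their values were seen.

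**Figure D4:**
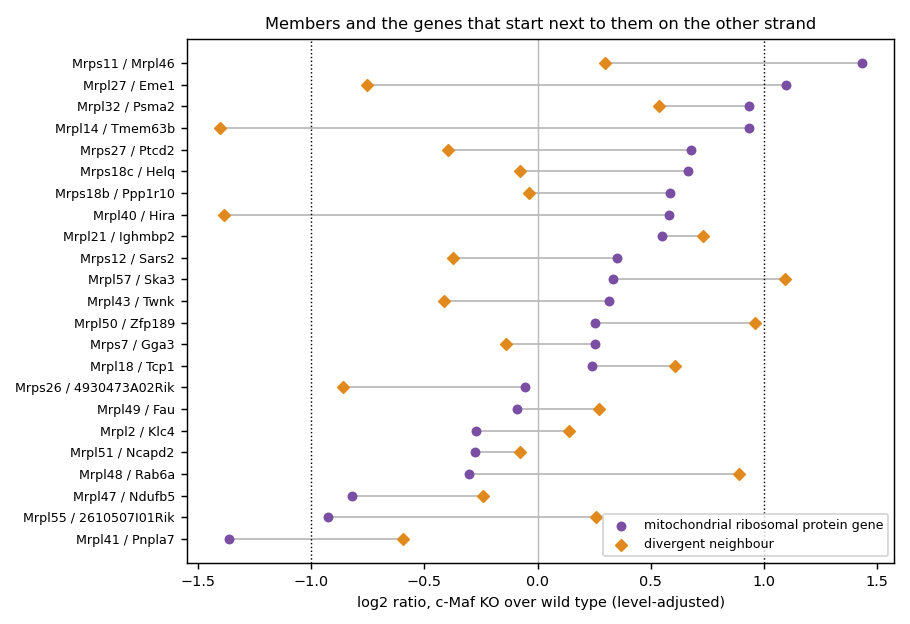
Level-adjusted log2 ratio of KO over wild type for 23 mitochondrial ribosomal protein genes (circles) and the gene that starts next to each on the opposite strand (diamonds), ordered by the ratio of the circle, with 2-fold as dotted lines. Lines join each pair; their median length is 0.73 log2 units, and 5 pairs hold a gene below the floor on 1 array, whose line has a length set by the floor.

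Members with and without each promoter motif overlapped in their ratios. The 7 members with an NRF1 match had a median of 0.58 (from -0.94 for Mrpl39 to 0.93 for Mrpl32), against 0.17 for 60 without. The 12 with an ETS match had 0.28, against 0.18 for 55 without, and the 8 with a YY1 match 0.60, against 0.16 for 59 without. The 10 with TGCTGA had 0.30, against 0.16 for 57 without. Neither Mrpl41 nor Mrpl11 held any of the 4 motifs, but each motif was absent from most members. At least 1 of NRF1, ETS and YY1 was found in 26 of 67. The low ratios of Mrpl41 and Mrpl11 each rested on 1 of several probe sets.

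Other genes of mitochondrial gene expression are given for comparison, from lists drawn up with earlier results of these arrays known. The background of all genes measured was 9.05% lower and 8.34% higher. Proteins of the mitochondrial ribosome that carry other symbols had 4 of 4 measured within 2-fold (median 0.44), with Chchd1 at 0.93, Gadd45gip1 at 0.88, and Ptcd3 at -0.01. Of 20 assembly factors, 0 were lower and 1 was higher, the GTPase gene Noa1 (9.77 in KO and 8.12 in wild type, 1.16), with a median of -0.05; the ribosomal RNA methyltransferase gene Tfb1m was at -0.85. Of 12 translation factors, 0 were lower and 1 was higher: Mrrf, the ribosome recycling factor, with 20.1 in KO and 12.3 in wild type (1.73). The elongation factor gene Gfm2 was at -0.91. Of 16 mitochondrial aminoacyl-tRNA synthetases, 0 were lower and 1 was higher, Iars2, which was below the floor in wild type (8.90 in KO and 0.715 in wild type, at least 3.35-fold higher) and had another probe set at -0.49.

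Factors of mitochondrial DNA and RNA had the lowest median of these lists, -0.37, with 4 of 18 at least 2-fold lower, or 22.2%, and 0 higher, where the background was 9.05% lower and 8.34% higher. Polg and Polg2 encode the subunits of the mitochondrial DNA polymerase. Polg had 6.78 in KO and 27.4 in wild type (-1.03), with another probe set at -0.66, and Polg2 had 4.78 in KO and 18.1 in wild type (-1.04). Elac2, which trims transfer RNA, was at -1.29, with its other probe sets up to -0.20. Pnpt1, an RNA-degrading enzyme, was at least 6.22-fold lower (1.79 in KO and 34.3 in wild type), with another probe set at 0.13.

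The cytosolic ribosomal protein genes and the nuclear subunits of oxidative phosphorylation had level-adjusted medians above 0, as the mitochondrial ribosomal protein genes did. As deposited, the median was -0.38 for cytosolic ribosomal protein genes and -0.93 for oxidative phosphorylation genes, against -0.89 for the mitochondrial ribosomal protein genes. The cytosolic list holds 42 genes found by symbol, Rpl39l and Rps27l among them, and need not be complete. Of 40 cytosolic ribosomal protein genes measured, 1 was lower (Rps25, -1.15), or 2.50%. Another 3, or 7.50%, were higher (Rpl39, Rpl11 and Rpl37, from 1.08 to 1.48), and the median was 0.35 (SD 0.57). Rps25 and Rpl39 were read at low signal, 16.4 in KO and 80.8 in wild type for Rps25, and 19.1 and 14.0 for Rpl39. Rpl11 had 478 in KO and 359 in wild type, and Rpl37 had 136 and 146. Over all genes measured, the background was 9.05% lower and 8.34% higher. Of 77 oxidative phosphorylation genes measured, 3 were lower, or 3.90%, and 8 higher, or 10.4%, with a median of 0.25 (SD 0.63). The 3 lower ones, Cox5a (-1.23), Cox6a1 (-1.23) and Cox6b1 (-1.12), encode subunits of complex IV, and each had another probe set nearer to or above 0 (up to -0.10, 0.29 and -0.34). Of the 8 higher ones, 5 encode subunits of ATP synthase (Atp5md 1.66, Atp5o 1.36, Atp5g2 1.28, Atp5c1 1.25 and Atp5b 1.22) and 3 encode proteins of complex I (Ndufa6, Ndufa7 and Ndufv3, from 1.05 to 1.07). Other probe sets of these were at 0.83 for Atp5o, 0.92 for Atp5g2 and down to 0.42 for Ndufa7. The 17 Atp5 genes measured ran from -0.80 for Atp5pb to 1.66, with 0 at least 2-fold lower. Neither the differences between the medians of these lists nor those between complexes were tested.

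**Figure D5:**
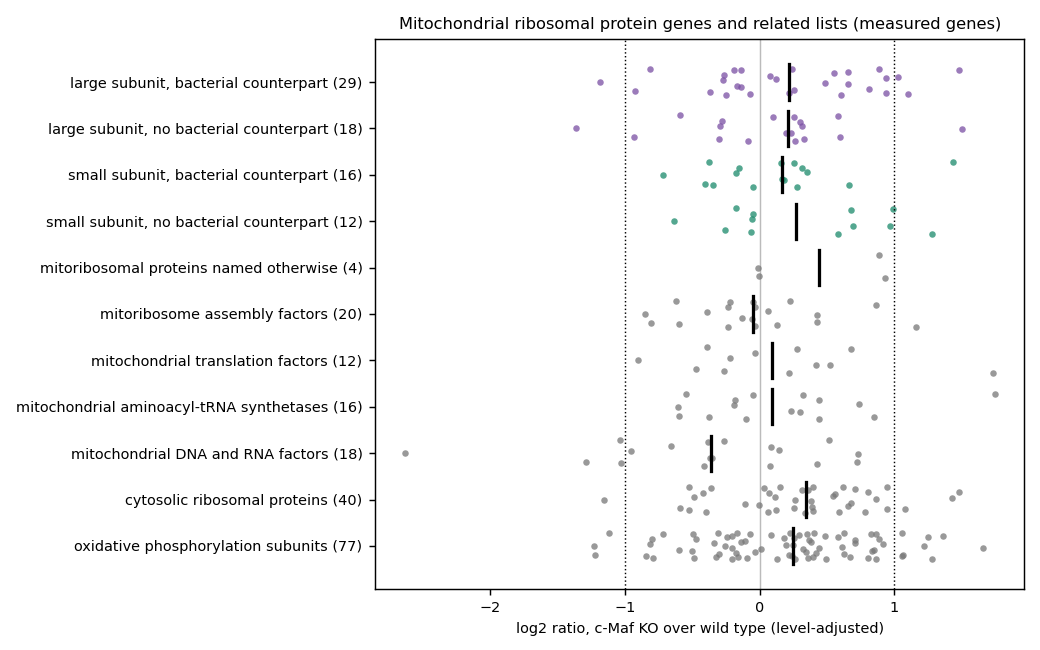
Level-adjusted log2 ratio of KO over wild type for measured genes, with the number of genes in brackets. Shown are 4 classes of mitochondrial ribosomal protein genes (75 genes, Mrps36 left out), then the comparison lists. The classes are by symbol and by bacterial counterpart as given by structure names. Bars are medians and dotted lines 2-fold. The 4 classes have medians between 0.16 and 0.27, and mitochondrial DNA and RNA factors lie lowest at -0.37.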

How the data were processed

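Per the labels' protocols, total RNA of sorted fetal liver cells was labelled with biotin and hybridised to Affymetrix arrays. The values deposited by the authors are 1 linear intensity per probe set and array, from 0.0203 to 10606 over 45101 probe sets; their summarisation and scaling are not stated in the sources used. Leaving out 64 control probe sets, 34945 had 1 symbol in the platform annotation of 2016, 932 had several and 9160 none; Entrez identifiers linked 34741 of the first to RefSeq genes (GRCm38.p6). The arrays were quantile-normalized on the log2 scale in Python 3.11.15 (pandas 2.3.3, numpy 2.4.6, with statsmodels 0.14.6 for lowess at a fraction of 0.3), and the 50th percentile of the pooled values served as floor. Members and lists were chosen with earlier results of these data known. Named members were those past 2-fold, the 5 lowest, 5 highest and 5 of highest signal in each subunit, the Mrps18 family, Mrps30, Mrps36 and those with probe sets over 1.3 log2 units apart. The steps were tested on simulated data, where only bright genes were changed. The noise added was smaller than the spread between probe sets of the same gene. That test does not bear on calls near 2-fold or in dim genes. With 1 array per genotype there is no test, no standard error and no depth. Alternatives changed the scaling, floor, probe set rule, threshold, brightness and subunit assignment.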

Additional observations from a re-analysis of the deposited data

Results flagged for a closer look

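Mrpl30, a large subunit gene, was read only by probe sets that the annotation shares with Gm6238, so it was no member. The brighter of them had a signal of 54.3 in KO and 34.5 in wild type, a level-adjusted log2 ratio of 1.798 (3.48-fold higher in KO), above the wild-type array in deposited signal as well and above every member. It drew attention as a signal outside the genes reported on. Which of the symbols the signal belongs to was not tested. Mrpl53, likewise shared with Ccdc142, had 10.01 in KO and 14.9 in wild type, a ratio of 0.42.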

How the results depend on the processing

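Results were recomputed under 15 other settings where each applied. As deposited, 33 members were at least 2-fold lower and 0 higher, with a median of -0.89; with equal medians it was 7 lower and 3 higher (-0.22), with centred ratios 3 lower and 4 higher (0.044), and scaled to the hybridisation controls, chosen after seeing the data, 51 lower and 0 higher (-1.18). All genes shifted too, to medians of -0.79, -0.23, 0.14 and -1.03. Of all genes, 39.8% were lower and 1.19% higher as deposited, and 16.3% and 4.74% with equal medians. The shares were 8.22% and 13.9% with centred ratios, and 51.2% and 0.71% with the hybridisation controls. Under these 4 scalings large minus small was 0.15. They shift all ratios by nearly 1 amount, so they could hardly differ in this. It was also 0.15 with probe sets lacking a suffix (62 members). Floors at the 25th and 65th percentile, and a probe set chosen after normalization, left it at 0.05 as in the main setting. It was above 0 in 11 of 13 settings and below 0 with lowess (-0.04) and means over probe sets (-0.03). Since many of these settings repeat a value, the count does not measure robustness. With lowess 2 were lower and 10 higher, where the background, which includes genes with only a bound, was 9.43% and 6.12%. With the floor at the 25th percentile 3 were lower, the third being Mrpl55 at -2.82, where the background was 17.7%. With the floor as a pseudocount 3 were lower, again with Mrpl55 (-1.38), and 2 higher, where the background was 5.99% and 5.29%. With means over probe sets 1 was lower, where it was 5.14%. At 1.5-fold 8 were lower and 20 higher, where the background was 21.0% and 21.2%. At 3-fold it was 0 and 0, where the background was 2.15% and 1.59%. Without suffixed probe sets Mrpl41 was at 0.83, Mrpl11 at 0.00063 and Mrpl1 at -0.97, on the other side of 0; Mrpl4 was at -0.079 as deposited, and with the hybridisation controls Mrpl4 was at -0.37, Mrpl27 at -0.27 and Mrps36 at -0.23. These are the 7 such changes of members past 2-fold; with named members within 2-fold, 46 of 378 values lay on the other side of 0, most of them as deposited (12), with the hybridisation controls (14) or without suffixed probe sets (9). The cause was not tested beyond the construction of each setting. Signal over background limits Mrpl55, Mrpl1 and Mrps11, which are near the floor. No paired analysis was possible because each genotype has 1 array.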
